A study of Mus musculus with 6 samples.

Results

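The insulin-like growth factor (IGF) system was described in stromal cells of MO5 tumors through 10 genes: the ligands Igf1 and Igf2, the receptors Igf1r and Igf2r, and the binding proteins Igfbp2, Igfbp3, Igfbp4, Igfbp5, Igfbp6 and Igfbp7. The genes were chosen by name, and all 10 are among the 53801 genes of the count table. MO5 is a B16 melanoma line that carries the ovalbumin gene (B16-OVA), grown under the skin of young adult C57Bl/6 mice. PDGFRα+ Pdpn+ cells were sorted from these tumors by FACS, with CD45+ and CD31+ cells gated out, and their RNA was sequenced in 6 libraries. The 3 DTR libraries (genotype DTR+) came from ADAM12-DTR mice, whose BAC transgene places the diphtheria toxin receptor under the Adam12 promoter. The 3 Ctrl libraries (genotype DTR-) came from non-transgenic littermates, and both groups were labelled as given diphtheria toxin, so toxin alone is common to them. The transgene follows Adam12 and no second cell-type gene, so the toxin reaches any cell in which the promoter is active. The labels do not say whether each library is 1 mouse, and the p-values below measure the spread between these libraries, which may be technical.

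IGF1 and IGF2 are secreted growth factors that signal through the tyrosine kinase receptor IGF1R, while IGF2R, the cation-independent mannose-6-phosphate receptor, carries IGF2 to the lysosome. IGF binding proteins hold the ligands outside the cell and are released from them by proteases; IGFBP6 prefers IGF2, and IGFBP7 binds IGFs only weakly. Fibroblasts are a main source of IGF1 and of several binding proteins in tumors, where these proteins lie in the extracellular matrix.

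Library totals ran from 22339635 to 34271929 counts, and 3 counts, taken as the floor, equalled 0.0872 to 0.132 CPM, the count of a gene scaled to the library total after TMM scaling. PCR copies are not independent molecules, and the floor allows for counting error alone. The sort was checked against marker genes. The 9 fibroblast markers (Pdgfra, Pdpn, Col1a1, Col1a2, Col3a1, Dcn, Lum, Thy1 and Fap) were all detected, with summed levels of 5161 to 13608 CPM in Ctrl and 5568 to 14100 CPM in DTR. The 12 melanocyte markers, which a stromal sort should lack, summed to more than that in every library, at 17933 to 21029 CPM in Ctrl and 16857 to 19886 CPM in DTR, led by the pigment enzyme gene Dct. The cell type from which each IGF read came was not tested, and in such bulk libraries fewer cells of a type cannot be told apart from less RNA per cell. Adam12, whose promoter drives the toxin receptor, stood at 216, 181 and 175 CPM in Ctrl and at 165, 151 and 112 CPM in DTR. The highest DTR library lay below the lowest Ctrl library, with a log2 fold change of -0.42 (SE 0.154), but did not pass the test across all genes (edgeR quasi-likelihood test with Benjamini-Hochberg adjustment, adjusted p = 0.602). The DTR level was thus 0.748 times that of Ctrl, and Adam12 RNA remained in all 3 DTR libraries.

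No IGF gene differed between DTR and Ctrl at an adjusted p under 0.05. Of the 10 genes, 8 passed the filter on low counts, and 0 of these 8 were called by edgeR, where 0.0% of the 15133 genes tested were called; DESeq2 called 0 of the 7 for which it gave an adjusted p, against 0.151% of all genes. At an unadjusted p under 0.05, edgeR marked 1 of the 8, Igfbp5, against 7.92% of all genes. DESeq2 at that level marked 0 of the 8 members with a p, Igfbp2 among them, against 4.89% of all genes, and gave Igfbp5 no p; without its Cook's distance cut, explained below, it marked 1 of 9, again Igfbp5 (unadjusted p = 0.0167). With limma voom, robust moderation, a replicate block, and edgeR without Ctrl replicate 2 or without Ctrl replicate 3, 0 IGF genes were marked at that level. With all genes of at least 1 count edgeR marked 2, and without DTR replicate 2 also 2, beside 1810 and 1191 of all genes. Igfbp5 was the only 1 of the 8 whose groups did not overlap. Over all genes this was so for 14.5%: 6.32% with every DTR library above, as for Igfbp5, and 8.18% with every DTR library below. The median log2 fold change of the 8 was -0.01, beside -0.003 for all genes tested. Their median thus lay near that of all genes, and the largest log2 fold changes were those of Igfbp5 and Igfbp6, both highest in DTR replicate 3.

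**Figure D1:**
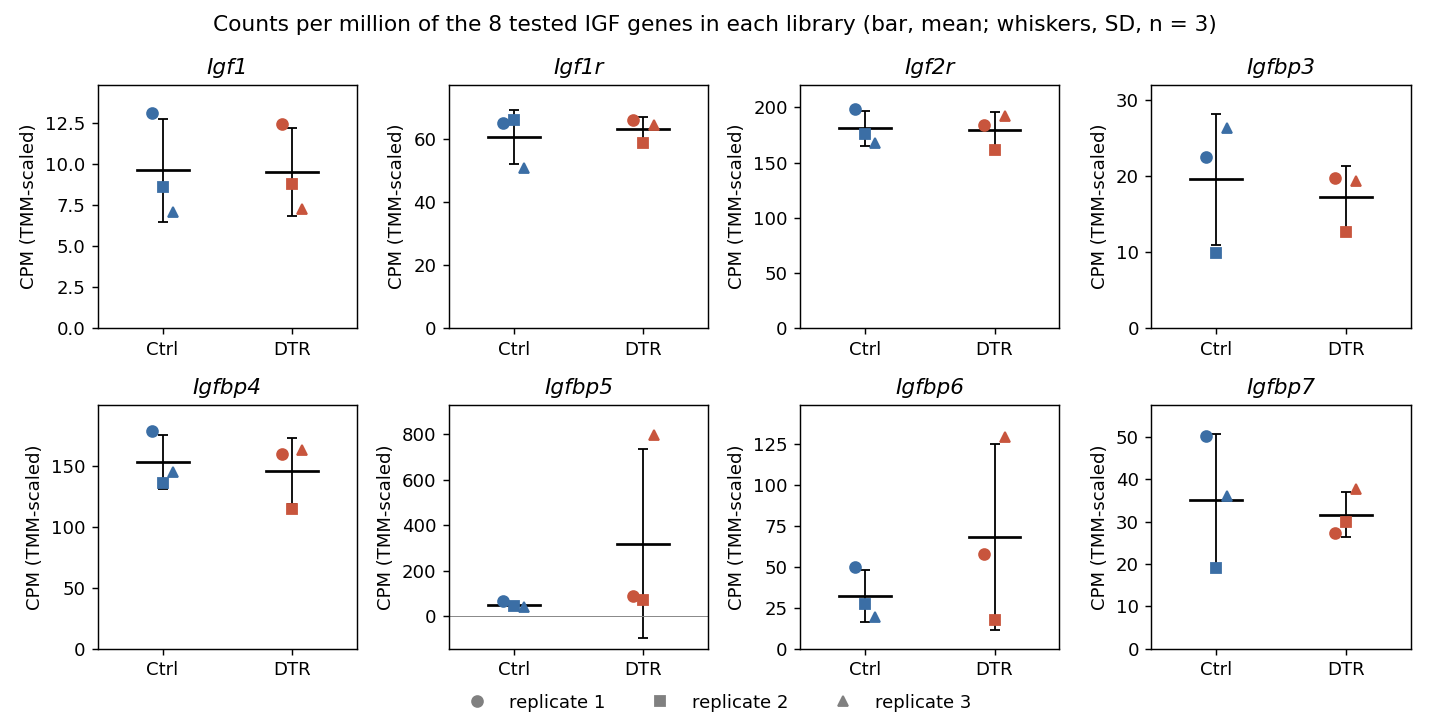
CPM (vertical axis, scaled with TMM factors) of the 8 tested IGF genes in Ctrl and DTR libraries, with a point per library, a bar for the mean and whiskers for the SD of 3 libraries. The points of 7 genes overlap between groups; Igfbp5 reached 798 CPM in DTR replicate 3 and no more than 87.9 CPM elsewhere, so that its SD runs below 0.

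Igf1, the ligand that growth hormone induces, was expressed at a low level and did not separate the groups. It stood at 13.1, 8.62 and 7.09 CPM in Ctrl and at 12.5, 8.78 and 7.27 CPM in DTR. Replicate 1 was highest and replicate 3 lowest in both groups, which overlapped almost fully. The means were 9.62 ± 3.14 CPM in Ctrl and 9.51 ± 2.67 CPM in DTR (SD, n = 3). The log2 fold change was -0.01 (SE 0.288), with a 95% interval from -0.68 to 0.65 (edgeR, adjusted p = 0.991). The 12 macrophage markers, a cell type known to make IGF1, summed to 228 to 318 CPM in Ctrl and 245 to 265 CPM in DTR, with 228 CPM in the Ctrl library in which Igf1 was highest and 245 CPM in the DTR library in which it was lowest, each the lowest macrophage sum of its group. Mertk alone gave 100.4 to 117 CPM of this sum, Lyz2 23.3 to 42.6 CPM, Adgre1 3.62 to 11.4 CPM and Csf1r 6.65 to 11.9 CPM. The sort gated out CD45+ cells, macrophages included, and the CD45 gene Ptprc stood at 16.3 to 49.6 CPM. The part of macrophage RNA in Igf1 was not tested. Over the 6 libraries, the genes whose centred log2 CPM lay nearest to Igf1, among 8792 genes with a mean of at least 10 CPM, were Smn1, 1110038B12Rik and Cdca4, at root mean square differences of 0.10, 0.14 and 0.14. Igf1 at chr10:87858265-87937042 (GRCm38, plus strand) spans 78.778 kb and shares no exonic base with another gene on its strand.

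Igf2, the fetal growth factor expressed from the paternal allele, had 0 counts in all 6 libraries, and this 0 cannot be read as absence of its RNA. The gene lies on the minus strand at chr7:142650766-142666816 (GRCm38). In the annotation, the gene Gm49394 (chr7:142650769-142669942) covers it on the same strand and shares 3596 of its 5723 exonic bases, or 62.8%. Gm49394 also had 0 counts in all 6 libraries. All 543 coding bases of an Igf2 transcript lie whole in 1 transcript of Gm49394. The first 90 of them, shown because they stand letter for letter in both transcripts, follow, with the start codon in capitals.

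Igf2 and Gm49394: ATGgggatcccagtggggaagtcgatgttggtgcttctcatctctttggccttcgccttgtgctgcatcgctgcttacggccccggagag

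By default, featureCounts leaves a read that falls in more than 1 gene unassigned; how overlapping genes were handled is not given in the sources used here. The remaining 2127 exonic bases belong to Igf2 alone on this strand, and no read was counted there either. The part of the overlap in the 0 of Igf2 was not tested, since reads were not used here. The neighbouring H19, an imprinted noncoding RNA expressed from the maternal allele and counted on the same strand, had 476, 208 and 41 counts in Ctrl and 457, 240 and 231 in DTR. H19 was therefore counted in every library, and Igf2 was the only ligand for which the table gives no level. The other 9 IGF genes share no exonic base with another gene on their strand.

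Both receptors varied little between libraries and did not separate the groups, with the narrowest intervals of the 8 tested IGF genes. Igf1r stood at 65.1, 65.9 and 50.7 CPM in Ctrl and at 66.1, 58.6 and 64.4 CPM in DTR. The groups overlapped, and 1 Ctrl library was lowest. The log2 fold change was 0.06 (SE 0.123; 95% interval -0.23 to 0.34; edgeR, adjusted p = 0.916). Igf2r stood at 198.5, 176 and 168 CPM in Ctrl and at 184, 161 and 193 CPM in DTR. The highest library was in Ctrl and the lowest in DTR, with overlap between. The log2 fold change of Igf2r was -0.01 (SE 0.103; 95% interval -0.25 to 0.22; edgeR, adjusted p = 0.975). The highest library exceeded the lowest by 1.30 times for Igf1r and 1.23 times for Igf2r. For the marker sums this ratio was 1.25 for melanocytes, 1.40 for macrophages and 2.73 for fibroblasts. Relative to the melanocyte sum it was 1.52 for Igf1r and 1.41 for Igf2r, and relative to the fibroblast sum 2.76 and 2.47. The cell type from which the receptor reads came was not tested. Igf1r lies at chr7:67952827-68233668 (plus strand) and spans 280.842 kb, Igf2r at chr17:12682406-12769664 (minus strand). With an offset for genomic span, the log2 fold change of Igf1r turned to -0.15 and stayed uncalled.

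Igfbp5, the binding protein that adheres to extracellular matrix, was the IGF gene with the largest difference, and 1 library set its size. It stood at 65.6, 46.6 and 41.7 CPM in Ctrl and at 87.9, 69.7 and 798 CPM in DTR, or at 1608, 1113 and 1187 against 3025, 2165 and 18119 counts. Every DTR library lay above every Ctrl library, and DTR replicate 3 lay far above the rest. The means were 51.3 ± 12.6 CPM in Ctrl and 319 ± 416 CPM in DTR (SD, n = 3). The log2 fold change was 2.63 (SE 0.883), a 6.21-fold difference with a 95% interval of the log2 value from 0.60 to 4.67. It did not pass across all genes (edgeR, unadjusted p = 0.0176, adjusted p = 0.602). The exact permutation test, two-sided, gave p = 0.1, the smallest that 3 libraries against 3 allow.

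When DTR replicate 3 was left out, Igfbp5 had a log2 fold change of 0.62 (SE 0.200; edgeR, unadjusted p = 0.0156, adjusted p = 0.815), and the DTR mean was 78.8 CPM. The remaining 2 DTR libraries still lay above all Ctrl libraries. DESeq2 gave a log2 fold change of 2.65 but no p, because its cut on Cook's distance, a measure of how far 1 sample sets a fit, removed the gene; without this cut its adjusted p was 0.599, and over the alternatives run adjusted p ranged from 0.404 to 0.852. limma voom gave 1.70 with an unadjusted p of 0.0914 and an adjusted p of 0.676. With 0.5 CPM added to each value, the level of Igfbp5 in DTR replicate 3 was 9.04 times that of the next library. This was the second highest such ratio of the 15133 genes. Igfbp5 made up 8.43 to 10.2% of the summed CPM of the 10 IGF genes in Ctrl, 14.3 and 14.8% in DTR replicates 1 and 2, and 56.6% in DTR replicate 3. The gain of the IGF genes as a whole in that library, from 472 to 643 CPM elsewhere to 1412 CPM, was therefore mostly Igfbp5.

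Igfbp6, the binding protein with a preference for IGF2, was also highest in DTR replicate 3, but its groups overlapped. It stood at 49.7, 27.4 and 19.3 CPM in Ctrl and at 58.0, 17.3 and 129 CPM in DTR. DTR held both the lowest and the highest library. The log2 fold change was 1.08 (SE 0.640; 95% interval -0.40 to 2.56; edgeR, adjusted p = 0.671). Leaving out DTR replicate 3 gave Igfbp6 a log2 fold change of 0.23 and a DTR mean of 37.7 CPM, beside 32.2 ± 15.7 CPM in Ctrl (SD, n = 3).

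**Figure D2:**
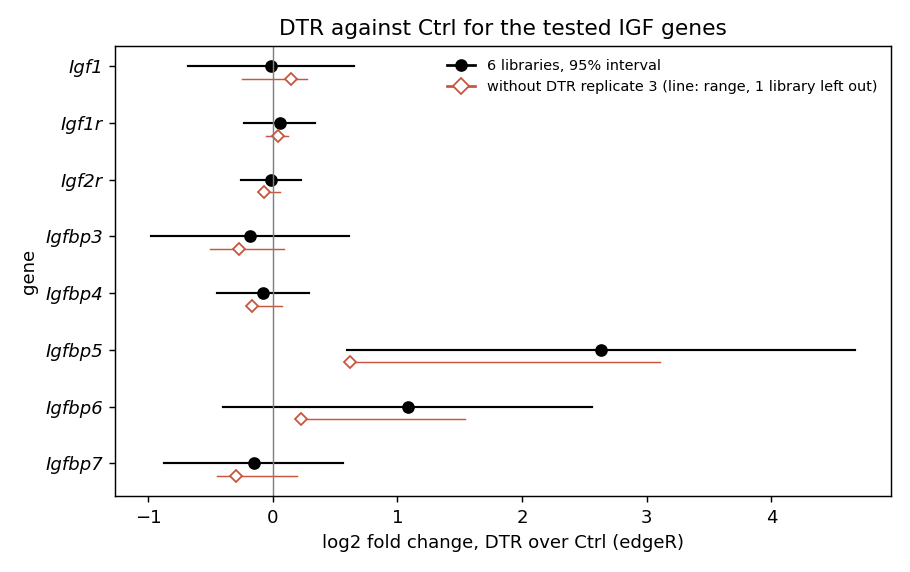
Log2 fold change of DTR over Ctrl (horizontal axis) of the 8 tested IGF genes: filled points with 95% intervals from all 6 libraries, open points without DTR replicate 3, and thin lines for the range when 1 library is left out. The intervals of 7 genes include 0, and Igfbp5 moves from 2.63 to 0.62 without DTR replicate 3.

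Markers of DPP4+CD34hi fibroblasts were also highest in DTR replicate 3. The 6 markers of this population (Dpp4, Cd34, Pi16, Cd55, Ly6c1 and Sema3c), some of which the study of these tumors names and which are therefore no independent evidence, were all detected and summed to 400, 173 and 240 CPM in Ctrl and to 478, 215 and 1320 CPM in DTR. DTR replicate 3 was again the highest, and the remaining DTR libraries overlapped with Ctrl. Of the general fibroblast markers, Dcn (600 CPM, at most 245 elsewhere), Lum (116, at most 50.9) and Fap (32.3, at most 13.2) were also highest in that library. Pdgfra, Pdpn, Thy1 and Col3a1 were too, while Col1a1 and Col1a2 were highest in Ctrl replicate 1. Of the 6 markers, 6 had a log2 fold change above 0, with a median of 1.27, and edgeR called 0 at an adjusted p under 0.05 and 3, all higher in DTR, at an unadjusted one, against 3.81% of all genes. Without DTR replicate 3 the median of these markers was 0.44, 6 of 6 still lay above 0, and 0 passed at an unadjusted p.

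Set against the sum of the DPP4+CD34hi markers, the 2 binding proteins parted. Per 1000 CPM of the markers, Igfbp6 stood at 124, 158 and 80.6 CPM in Ctrl and at 121, 80.4 and 97.9 CPM in DTR. Its highest library thus exceeded its lowest by 1.97 times on this scale, against 7.47 times in CPM. Igfbp5 stood at 164, 269 and 174 CPM per 1000 CPM in Ctrl and at 184, 323 and 605 CPM in DTR. DTR replicate 3 remained the highest library for Igfbp5, and its highest value exceeded the lowest by 3.69 times, against 19.2 times in CPM. Per 1000 CPM of the 9 fibroblast markers, Igfbp5 ran from 4.82 to 12.5 CPM in the other 5 libraries and reached 56.6 CPM in DTR replicate 3. In the same library the 10 endothelial markers summed to 101 CPM, against 27.7 to 47.5 CPM elsewhere, of which Tek alone gave 62.8 CPM. Of the 10, Kdr, Tek, Vwf and Esam were highest in that library, Cdh5 had 0 counts there and at most 39 elsewhere, and the defining markers Cldn5 and Emcn had at most 2 counts in any library. The part of these cell populations in the 2 genes was not tested.

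**Figure D3:**
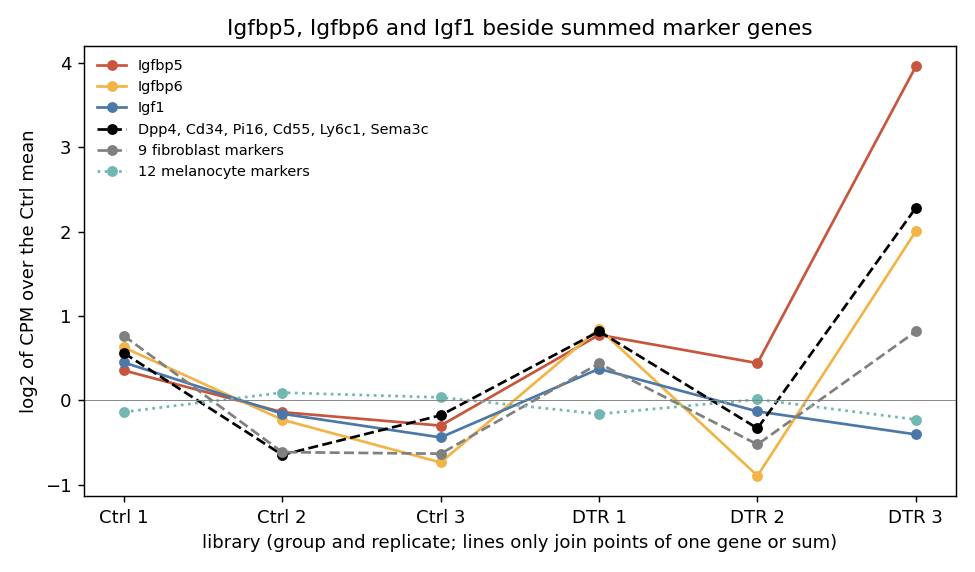
Log2 of the CPM of Igfbp5, Igfbp6 and Igf1 over the mean of Ctrl (vertical axis) in each of the 6 libraries, beside the summed CPM of 6 markers of DPP4+CD34hi fibroblasts, 9 fibroblast markers and 12 melanocyte markers; lines only join the points of a gene or sum. In DTR replicate 3, Igfbp5 and Igfbp6 are high with the DPP4+CD34hi markers (1320 CPM), while Igf1 (7.27 CPM) and the melanocyte markers (16857 CPM) are not. The sum of the 9 fibroblast markers is also highest there (14100 CPM), close to that of Ctrl replicate 1 (13608 CPM).

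The genes with the pattern most like Igfbp5 over the 6 libraries were looked up after its values were seen. They were Aldh1a3, Pcsk6 and Cd55 (itself a DPP4+CD34hi marker), at root mean square differences of 0.38, 0.45 and 0.47 in centred log2 CPM. For Igfbp6 they were AW551984, Flrt2 and Dpt, the last the gene of the matrix protein dermatopontin, at 0.11, 0.19 and 0.21. The lists do not share a gene. DTR replicate 3 was the highest library for 20.9% of the genes tested, and, with 0.5 CPM added to each value, more than 4 times the next library for 9 genes.

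The 250 bases before the RefSeq start of both genes are shown because Igfbp5 and Igfbp6 were the 2 IGF genes highest in DTR replicate 3 (sequences from RefSeq, GRCm38.p6, in the direction of the gene). Capitals mark matches to TATAAA or CCAAT on either strand. ACGTG and GCGTG, cores known from hypoxia-response and xenobiotic-response elements, and the GC box GGGCGG were searched on both strands too. These are in neither window.

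Igfbp5, chr1:72874866-72875115, minus strand: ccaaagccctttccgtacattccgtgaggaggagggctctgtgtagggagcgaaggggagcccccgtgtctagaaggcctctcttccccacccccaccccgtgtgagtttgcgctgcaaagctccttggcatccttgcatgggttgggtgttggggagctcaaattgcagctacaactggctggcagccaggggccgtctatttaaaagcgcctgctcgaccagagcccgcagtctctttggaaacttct
Igfbp6, chr15:102143936-102144185, plus strand: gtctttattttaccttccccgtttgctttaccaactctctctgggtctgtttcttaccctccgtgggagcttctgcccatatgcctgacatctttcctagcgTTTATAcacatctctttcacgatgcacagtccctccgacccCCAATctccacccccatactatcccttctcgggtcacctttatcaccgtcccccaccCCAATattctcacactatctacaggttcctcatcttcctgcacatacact

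The Igfbp5 window holds 58.8% G and C and matches none of the 5 motifs. The Igfbp6 window, at 49.6% G and C, holds TATAAA on the opposite strand and CCAAT at 2 places. Of all 32851 promoter windows of this length, 12.4% hold TATAAA and 33.8% hold CCAAT, so that both are common, and a match is a description of the letters alone.

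The remaining binding proteins showed no difference beyond the spread of the libraries. Igfbp4, the substrate of the protease pappalysin, stood at 178, 136 and 145 CPM in Ctrl and at 159, 114 and 163 CPM in DTR. The groups overlapped, with a log2 fold change of -0.08 (SE 0.159; 95% interval -0.44 to 0.29; edgeR, adjusted p = 0.916). Igfbp3, the main carrier of IGFs in blood, stood at 22.6, 9.87 and 26.3 CPM in Ctrl and at 19.8, 12.6 and 19.4 CPM in DTR. Ctrl held both its lowest and its highest library, and the log2 fold change was -0.18 (SE 0.344; 95% interval -0.98 to 0.61; edgeR, adjusted p = 0.903). Igfbp7, known from blood vessels as well as fibroblasts, stood at 50.2, 19.03 and 36.0 CPM in Ctrl and at 27.3, 29.9 and 37.6 CPM in DTR. Ctrl again held the lowest and the highest library, and the log2 fold change was -0.15 (SE 0.311; 95% interval -0.87 to 0.57; edgeR, adjusted p = 0.912). The 10 mural markers summed to 56.5 to 98.1 CPM in Ctrl and 44.1 to 59.7 CPM in DTR, of which Mcam, known from melanoma cells too, gave 27.8 to 49.7 CPM, with Higd1b at 0 in all libraries and Rgs5 at no more than 1.06 CPM, and both their sum and Igfbp7 were highest in Ctrl replicate 1. In DTR replicate 3 they went apart, with the lowest mural sum of the 6 libraries (44.1 CPM) and the second highest level of Igfbp7 (37.6 CPM). Their part in Igfbp7 was not tested.

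Igfbp2, the binding protein with an integrin-binding motif, had 3 counts in Ctrl replicate 3 and 0 in the other 5 libraries, which is at the floor, so no fold change is given. It lies on chromosome 1 tail to tail with Igfbp5, with 5.457 kb between them (Igfbp2 at chr1:72824503-72852474, plus strand; Igfbp5 at chr1:72857932-72874884, minus strand). The neighbours differed widely in the table, with at most 3 counts for Igfbp2 and 1113 to 18119 for Igfbp5. In the second such pair, on chromosome 11, Igfbp1 lies 3.539 kb from Igfbp3 (chr11:7206086-7213923, minus strand) and had 0 counts in all libraries. Igfbp4 lies at chr11:99041244-99054392 (plus strand), Igfbp6 at chr15:102144362-102149511 (plus strand) and Igfbp7 at chr5:77349240-77408041 (minus strand).

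Levels were compared between genes per length, as CPM per kilobase of the joined exons. By the median of the 6 libraries the order was Igfbp6 (34.7), Igfbp4 (34.5), Igfbp7 (27.2), Igf2r (19.3), Igfbp5 (11.3), Igfbp3 (6.26), Igf1r (3.85) and Igf1 (0.878), all in CPM per kilobase, then Igfbp2 and Igf2. The ranges over libraries of neighbours in this order overlapped, except that Igf1r (3.02 to 3.93) lay above Igf1 (0.716 to 1.33) in every library, and Igf1 above Igfbp2 (0 to 0.057). Igfbp6 and Igfbp4 cannot be ordered, since each was the higher of the pair in 3 of 6 libraries, and with the longest transcript as the length they swapped places. As a ratio of highest to lowest library, Igfbp6 spread the most after Igfbp5, from 15.6 to 116 CPM per kilobase, and Igf2r the least, from 17.3 to 21.3.

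**Figure D4:**
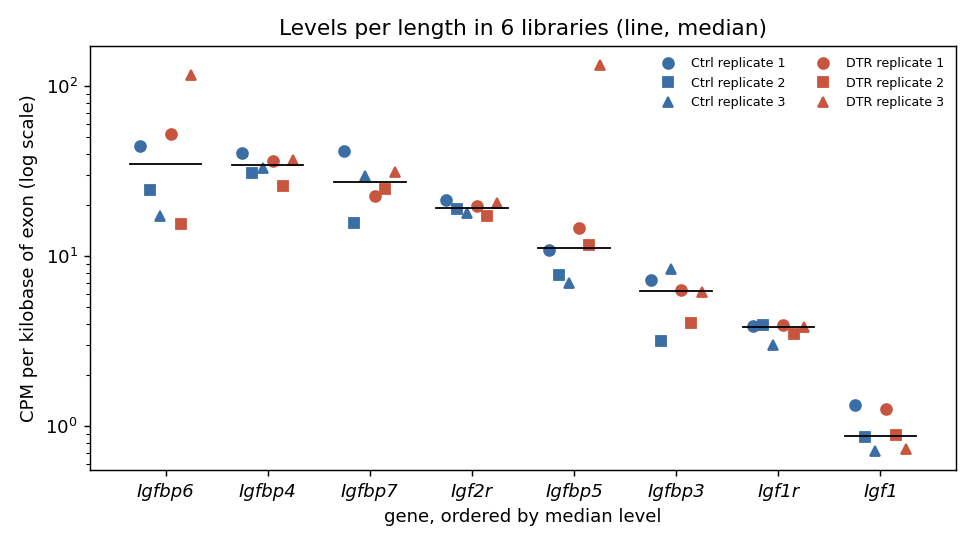
Level per length (vertical axis, CPM per kilobase of exon, log scale) of 8 IGF genes ordered by their median, with a point per library and a line at the median; Igf2 and Igfbp2 are left out as at or near 0. The binding proteins Igfbp6, Igfbp4 and Igfbp7 are near the top, at medians of 34.7, 34.5 and 27.2, and Igf1 is lowest at 0.878.

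Igfbp5 took the largest share of the binding proteins in DTR replicate 3 and a small one in the other 5 libraries. As shares of their summed level per length, Igfbp4 made up 27.9, 37.5 and 34.4% in Ctrl and 27.4, 31.6 and 11.4% in DTR. Igfbp6 made up 30.9, 30.0 and 18.2% in Ctrl and 39.6, 19.04 and 36.0% in DTR. Igfbp5 made up 7.55, 9.44 and 7.28% in Ctrl and 11.1, 14.2 and 41.1% in DTR. Igfbp5 was thus the largest share in DTR replicate 3 and, with Igfbp2 set aside, 1 of the 2 smallest in each Ctrl library. Igfbp7 ran from 19.2 to 31.2% in Ctrl and from 9.63 to 30.2% in DTR, and Igfbp3 from 3.84 to 8.80% and from 1.92 to 4.93%. The summed level was 323 CPM per kilobase in DTR replicate 3 and 81.7 to 145 elsewhere, so the lower shares of Igfbp4, Igfbp7 and Igfbp3 in that library stood beside CPM within the range of the other libraries.

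**Figure D5:**
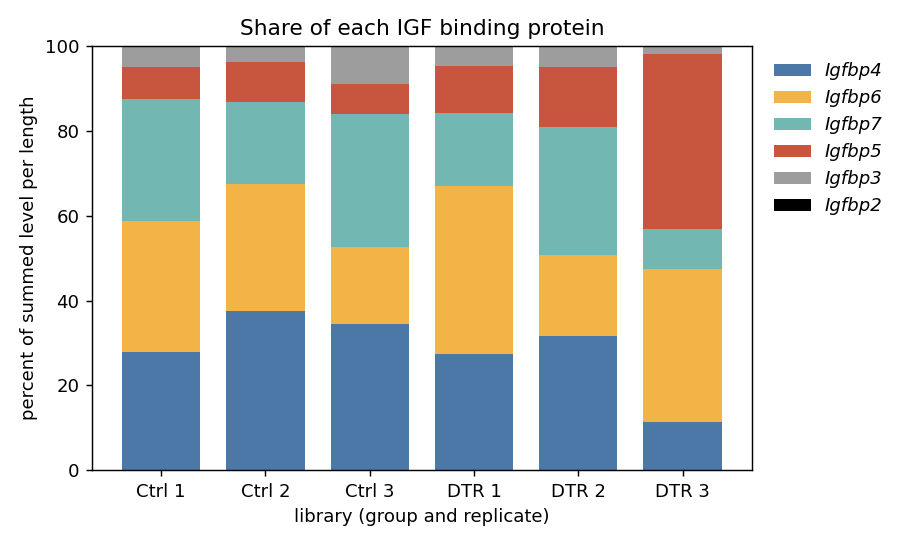
Percent of the summed level per length (vertical axis, stacked from 0 to 100) that each IGF binding protein made up in each of the 6 libraries. Igfbp5 takes 41.1% in DTR replicate 3 and 7.28 to 14.2% in the others.

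Of 50 other genes of the pathway, in 5 lists, 43 passed the filter and 0 were called by edgeR or, of 46 with an adjusted p, by DESeq2, which marked 6 at an unadjusted p under 0.05 (4.89% of all genes). At that level edgeR marked 4 as higher in DTR (3.81% of all genes) and 1 as lower (4.11%), with a median log2 fold change of 0.13 over the 43. None of the 5 passed across all genes, and the values below describe them only.

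Among 9 extracellular regulators, 6 were tested, with a median log2 fold change of 0.83, and 2 were marked as higher. Pappa2, a protease that cleaves IGFBP5 and IGFBP3, was low, with 4, 4 and 7 counts in Ctrl and 20, 12 and 49 in DTR. It was higher in every DTR library, most in replicate 3, with a log2 fold change of 2.38 (SE 0.791; edgeR, adjusted p = 0.602) that was 1.31 without that library. Htra3, a secreted serine protease, stood at 117, 51.0 and 50.4 CPM in Ctrl and at 149, 80.4 and 242 CPM in DTR. Its groups overlapped, and its log2 fold change of 1.11 (SE 0.446; edgeR, adjusted p = 0.604) was 0.66 without DTR replicate 3.

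Of 20 genes of signalling downstream, 17 were tested, with a median of 0.06, and 1 was marked. Groups did not overlap for 4 of the 17, with Foxo1 above Ctrl in every DTR library and Akt1, Akt2 and Foxo3 below it in every DTR library, the last 3 by log2 fold changes of -0.16, -0.06 and -0.15; over all genes 6.32% lay above in this way and 8.18% below. Below the filter, the insulin receptor-related gene Insrr had 1, 0 and 0 counts in Ctrl and 12, 14 and 14 in DTR. Foxo1, the transcription factor that AKT keeps out of the nucleus, stood at 17.1, 15.4 and 14.99 CPM in Ctrl and at 21.1, 23.3 and 27.0 CPM in DTR. Every DTR library lay above every Ctrl library, and no single library set the difference: the log2 fold change was 0.59 (SE 0.135; edgeR, adjusted p = 0.602), with a range of 0.49 to 0.68 when 1 library was left out.

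In the growth hormone axis, 6 of 6 genes were tested, with a median of 0.14. Stat5a, a transcription factor that carries the growth hormone signal, stood at 33.7, 32.4 and 31.0 CPM in Ctrl and at 24.3, 24.5 and 29.1 CPM in DTR. It was lower in every DTR library, with a log2 fold change of -0.32 (SE 0.113; edgeR, adjusted p = 0.602). The 3 IGF2 mRNA-binding proteins had a median of 0.13 and none was marked; the most highly expressed, Igf2bp3, stood at 29.5, 23.3 and 34.7 CPM in Ctrl and 33.9, 33.4 and 28.2 CPM in DTR.

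Of 12 imprinted genes and noncoding neighbours of Igf2 and Igf2r, 11 were tested, with a median of 0.41, and 1 was marked. Groups did not overlap for Airn, higher in DTR, and for Gnas, lower in DTR. Over all genes 6.32% lay above in this way and 8.18% below. Gnas stood at 1018, 1074 and 1013 CPM in Ctrl and at 941, 923 and 944 CPM in DTR, with a log2 fold change of -0.14. Airn, the noncoding RNA that silences Igf2r on the paternal allele and runs antisense to it (chr17:12741311-12860136, plus strand), stood at 24.4, 25.9 and 28.9 CPM in Ctrl and at 48.6, 35.6 and 34.0 CPM in DTR. Every DTR library lay above every Ctrl library, with a log2 fold change of 0.58 (SE 0.157; edgeR, adjusted p = 0.602), which was 0.45 with an offset for genomic span. Igf2r beside it had a log2 fold change of -0.01; the table was counted with strand, which separates reads of the pair as far as the library keeps the strand.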

How the data were processed

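The authors trimmed reads with cutadapt 3.4, aligned them to GRCm38 with STAR 2.7.3a and counted them per gene with featureCounts 2.0.1, with strand and an Ensembl annotation; library kit, SMARTer stranded total RNA pico. The deposited raw counts of 6 libraries were used. Another 6 per-library columns of normalised values and the authors' fold changes and p-values were not used. The table names no gene for 27987 of 53801 rows, of which 27841 were named from the GENCODE M21 annotation, which also gave coordinates. The release used for counting may differ from it.

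Genes were kept by filterByExpr (minimum count 10, minimum total 15), scaled with TMM factors and tested, DTR against Ctrl, by edgeR's quasi-likelihood test, two-sided, without covariates, with Benjamini-Hochberg adjustment over 15133 genes at 0.05; prior degrees of freedom were 3.94 and residual ones 4. Standard errors were derived from the quasi-likelihood F. The exact permutation test used log2(CPM + 0.5). The alternatives were other scalings and filters, DESeq2, limma voom, robust moderation, a replicate block, a loess offset on genomic span (span 0.5) and each library left out. The scripts were tested on simulated data. The members and lists were chosen with earlier results of these data known. Named were the 10 genes, Adam12, of each list the genes with an unadjusted p under 0.05 or else the most highly expressed, and the 3 nearest patterns to Igf1. Genes listed at 0, H19, Gm49394, Akt1, Akt2, Foxo3, Insrr, Gnas, the patterns nearest to Igfbp5 and Igfbp6 and single markers were added after their values were seen. Igf2, at 0, has no nearest pattern. Software versions were edgeR 4.0.16 with limma 3.58.1 in R 4.3.3, and also DESeq2 1.42.0. Figures were drawn with matplotlib 3.10.9 under Python 3.11.15.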

Additional observations from a re-analysis of the deposited data

How the results depend on the processing

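The number of IGF genes called stayed at 0 under all 16 alternatives, as did that of the other pathway lists. Over all genes, edgeR called 0, DESeq2 31, DESeq2 without the Cook's distance cut (added after seeing the data) 32, and 0 to 2 with 1 library left out, 2 of them without Ctrl replicate 1. Directions turned only for log2 fold changes near 0, none of them called. With library size alone, Igf1 stood at 0.0209, Igf2r at 0.0167 and the median of the tested IGF genes at 0.0188; with limma voom Igf1 stood at 0.0582 and the median at 0.0213; with the span offset Igf1r stood at -0.15. With 1 library left out, log2 fold changes ran from -0.25 to 0.28 for Igf1, -0.0521 to 0.12 for Igf1r, -0.0693 to 0.0572 for Igf2r, -0.50 to 0.0912 for Igfbp3, -0.16 to 0.0715 for Igfbp4 and -0.45 to 0.20 for Igfbp7, and the median from -0.0595 to 0.16. The cause of these turns was not tested. Igfbp5 and Igfbp6 stayed above 0 under the 16 alternatives, from 0.62 to 3.11 and from 0.23 to 1.54, the lowest without DTR replicate 3. Adam12 ran from -0.65 to -0.27. Adjusted p for Igfbp5 ran from 0.404 to 0.852. With the replicate number as a block, 0 genes were called. Igfbp5 then stood at 1.62, with an edgeR unadjusted p of 0.0777 and an adjusted p of 0.619. Libraries of the same number correlated at 0.114, 0.132 and -0.042 in their deviations, and those of different numbers at -0.215 to 0.102. So few values cannot tell whether the numbers pair the libraries. No alternative gives Igf2 a value, and at the depth of these libraries Igfbp2 is at the floor.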
